A study of Homo sapiens with 3 samples.

Results

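Antisense RNA genes are named after the gene they lie across from or beside, so that LHX5-AS1 is a transcript of the strand opposite to LHX5, and each of them was set beside that partner here. The antisense genes were chosen by their measured level, as the gene symbols ending in -AS and a digit with a level of at least 5 CPM, counts per 1000000 summed UMIs, in at least 1 of 3 single-cell libraries. This rule kept 178 of 910 such symbols, among 31113 symbols in all and 12612 symbols that reached the same level. The level in these libraries chose the genes, so that they were detected is no result. Just inside the threshold stood SLC25A25-AS1, KANSL1-AS1 and UBAC2-AS1, whose highest levels were 5.16, 5.06 and 5.04 CPM. Just outside stood RPARP-AS1, NRSN2-AS1 and RNF217-AS1 at 4.99, 4.99 and 4.83 CPM.

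The libraries are of H9, an established human embryonic stem cell line, grown with mTeSR medium and the STEMdiff SMADi Neural Induction Kit, which blocks SMAD signalling to drive cells towards neural progenitors. They are labelled day 0, day 2 and day 6 of that differentiation, 1 library per day. Their titles also carry the letters A, B and A in this order, which are not explained. The library labelled day 2 alone carries B, so its label and its letter cannot be told apart. They were made by inDrop with the TruDrop protocol, in which cells are barcoded in droplets and every RNA molecule caught is tagged with a unique molecular identifier (UMI). Cells needed 1000 UMIs and 500 genes, and no more than 25% of their UMIs from mitochondrial genes (MT-), which left 2290 cells with 28341741 UMIs under the day 0 label, 2419 with 20626135 under day 2 and 4180 with 41268018 under day 6. Levels below are CPM in the order of the labels.

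Marker genes did not follow the order of the labels. POU5F1, the pluripotency factor OCT4, stood at 2.22, 1229 and 268 CPM, and PAX6, a neural progenitor factor, at 176, 6.64 and 27.9 CPM. The 7 pluripotency markers summed to 1728, 3875 and 3236 CPM, with TDGF1 at 0 UMIs in the library labelled day 0, and the 8 neural progenitor markers to 1373, 324 and 903 CPM. Of the 7, SOX2 at 600, 333 and 810 CPM and LIN28A at 1039, 1037 and 1828 CPM were highest in the library labelled day 6. The others were highest in that labelled day 2, among them NANOG at 2.19, 66.6 and 0.945 CPM. Of the 8, SOX1 (1.62, 0.921 and 4.85 CPM) and OTX2 (86.1, 30.6 and 105 CPM) were highest in the library labelled day 6. The other progenitor markers were highest in that labelled day 0. Each library is therefore called by its label, and no difference is given as a change over time. The 3 libraries shared 38 to 82 kept cell barcodes in pairs, and 2, 42 and 150 cells lay in clusters held mostly by another library. No test between days was possible with 1 library each. Intervals are exact 95% intervals of counting error only, and whatever its interval a gene is called up when its CPM ratio is at least 2 and down when it is at most 0.5.

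Antisense transcripts are mostly long non-coding RNAs. They often start from the promoter region of a neighbouring coding gene and run away from it or into it. Some are known to act on the partner by opening or closing chromatin, by colliding with its transcription or by pairing with its RNA, and many have no known role. Next to genes for developmental transcription factors they are frequent and are often made in the same cells as the factor. A method that reads RNA without keeping its strand cannot tell the overlapping exons of both genes apart. The strand setting of the counts is not given in the sources used here, so for pairs with overlapping exons the counts of member and partner cannot be told apart with certainty.

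GENCODE release 29, on the hg38 build named in the submitters' processing notes, gave positions for 176 of the 178 antisense genes. It may not be the annotation behind the counts. By its gene types 117 were antisense RNAs, 28 long intergenic non-coding RNAs, 26 processed transcripts, 2 unitary pseudogenes and 3 protein coding genes, so the name does not always denote a non-coding RNA. In 80 pairs the starts overlapped, in 35 the ends overlapped, and 28 pairs were nested, with 1 gene inside the span of the other. In another 33 pairs the genes were divergent, running apart without overlap, and 32 of these had starts within 1000 bases, with a median distance of 101 bases over all 33. Exons of member and partner overlapped in 111 pairs.

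The promoters of 2 pairs with wide differences between libraries are shown, since member and partner start within a short distance of each other. Each is the RefSeq window of GRCh38.p14 from 250 bases before to 50 after the start, read 5′ to 3′ on the strand of its gene. FOXD3-AS1 (chr1:63322409-63322708, minus strand) shares 208 bases with the window of FOXD3 (chr1:63322317-63322616, plus strand). SOX21-AS1 (chr13:94712466-94712765, plus strand) shares 270 bases with that of SOX21 (chr13:94712496-94712795, minus strand). Capitals mark the TATA box motif TATAAA, the CAAT box motif CCAAT, the GC box core GGGCGG or the E-box palindrome CACGTG, on either strand. These motifs do not overlap each other in the windows shown.
FOXD3-AS1: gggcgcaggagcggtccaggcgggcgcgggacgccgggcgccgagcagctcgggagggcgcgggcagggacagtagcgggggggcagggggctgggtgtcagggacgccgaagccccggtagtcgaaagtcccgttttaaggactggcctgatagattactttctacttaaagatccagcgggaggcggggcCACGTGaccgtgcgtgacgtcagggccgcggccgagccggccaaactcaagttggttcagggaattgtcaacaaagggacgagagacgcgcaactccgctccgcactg
FOXD3: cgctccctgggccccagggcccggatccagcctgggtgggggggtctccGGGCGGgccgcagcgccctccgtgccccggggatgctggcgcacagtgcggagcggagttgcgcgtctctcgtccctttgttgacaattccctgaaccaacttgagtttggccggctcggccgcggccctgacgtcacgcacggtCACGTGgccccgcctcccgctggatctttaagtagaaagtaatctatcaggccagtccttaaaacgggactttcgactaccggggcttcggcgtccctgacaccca
SOX21-AS1: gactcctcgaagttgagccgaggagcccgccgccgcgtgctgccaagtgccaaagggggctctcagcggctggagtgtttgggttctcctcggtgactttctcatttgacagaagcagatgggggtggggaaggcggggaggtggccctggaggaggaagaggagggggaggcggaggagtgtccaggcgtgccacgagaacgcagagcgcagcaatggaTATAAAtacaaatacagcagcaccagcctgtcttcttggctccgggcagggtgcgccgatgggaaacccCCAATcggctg
SOX21: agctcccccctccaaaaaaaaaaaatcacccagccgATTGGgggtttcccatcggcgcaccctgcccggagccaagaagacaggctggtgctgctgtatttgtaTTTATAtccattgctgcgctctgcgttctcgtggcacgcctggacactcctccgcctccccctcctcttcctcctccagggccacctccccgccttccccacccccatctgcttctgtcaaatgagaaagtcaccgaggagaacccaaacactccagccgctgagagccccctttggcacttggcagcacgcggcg

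The FOXD3 pair holds the palindrome CACGTG in the shared stretch, and the SOX21 pair holds TATAAA and CCAAT there. Of 35116 RefSeq promoters 7.26% held CACGTG on either strand, 11.5% TATAAA and 34.6% CCAAT. Among the 86 antisense genes with a RefSeq promoter these shares were 16.3%, 8.14% and 37.2%. GGGCGG, the core of a GC box, was in 62.8% of the promoters of antisense genes and 69.6% of 92 promoters of partners, against 45.0% of all. The octamer ATTTGCAT was in 0 of the 86 and 0 of the 92, and in 1.77% of all. The median number of CG dinucleotides per window was 26.5 for antisense genes, 28 for partners and 14 for all promoters. The antisense genes were chosen by their level here and the 35116 promoters were not, so these shares and medians are not like for like. Promoters of all symbols at the same level were not counted. Both windows were in the table for 54 pairs, of which 17 shared bases. A match describes letters in a window and nothing beyond.

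Antisense genes of developmental regulators differed in how far their levels ranged, from 1.46 times between the lowest and the highest for OTX2-AS1 to 3302 times for FOXD3-AS1. Of the 10 members whose partner is in the list of developmental regulators, 6 were down and 1 was up in the library labelled day 2 relative to that labelled day 0. Of all symbols 10.6% were down and 11.7% up. Relative to the library labelled day 2, that labelled day 6 had 5 of the 10 up and 2 down (9.02% and 7.59% of all symbols), and relative to the library labelled day 0 it had 1 up and 3 down (12.2% and 7.03%). Their median log2 ratios were -1.78, 0.86 and -0.38, beside 0.02, 0.11 and 0.12 for all symbols. The list was chosen with results of these data known.

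FOXD3-AS1 lies on chromosome 1 at 63320884 to 63324441 and overlaps the start of FOXD3, a forkhead factor of pluripotent and neural crest cells. Span and overlap are those of GENCODE release 29. The RefSeq window shown above ends at 63322708, so RefSeq places the start of this minus-strand gene inside that span. By the RefSeq starts the genes run apart, so their overlap depends on the annotation. FOXD3-AS1 had 1, 2403 and 139 UMIs, or 0.0353 CPM (0.000893 to 0.197), 117 CPM (112 to 121) and 3.37 CPM (2.83 to 3.98). The library labelled day 2 thus stood far above both others, by 3302-fold over that labelled day 0, with an interval from 592, and by 34.6-fold (29.1 to 41.3) over that labelled day 6. With 1 UMI in the library labelled day 0 the former ratio is loosely set: it was 329 with at most 10% mitochondrial UMIs per cell and 7244 with an average of per-cell CPM. FOXD3 itself was at 0 UMIs under the day 0 label and stood at 27.3 and 0.121 CPM in the other two. With 3 UMIs in place of 0 this makes it 258-fold higher under the day 2 label, a value by convention and not the lower limit of its interval. Against the library labelled day 6 it was 226-fold higher (96.1 to 698). The difference between the libraries labelled day 2 and day 6 was smaller for FOXD3-AS1 than for FOXD3, with a ratio of the ratios of 6.52 (2.71 to 20.5).

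LHX5-AS1, on chromosome 12 at 113472003 to 113480624, overlaps the start of LHX5, a forebrain homeobox gene. Its levels were 43.7 CPM (41.3 to 46.2), then 1.45 CPM (0.981 to 2.08), then 56.4 CPM (54.1 to 58.7), and those of LHX5 were 52.3, 2.57 and 129 CPM. Both were lowest in the library labelled day 2: LHX5-AS1 was 30.1-fold (20.9 to 44.7) lower than in that labelled day 0 and LHX5 20.3-fold (15.5 to 27.3). In the library labelled day 6 LHX5-AS1 was 38.8-fold higher than in that labelled day 2, and 68.7-fold without the cells in clusters held mostly by another library. Without these cells its level in the library labelled day 2 was 0.0191 times that in the library labelled day 0. The pair parted between the other two libraries, where LHX5 had a 2.46-fold higher level in that labelled day 6 and LHX5-AS1 1.29-fold (1.20 to 1.38), and the ratio of the ratios was 1.91 (1.74 to 2.09).

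SOX21-AS1, divergent from SOX21 on chromosome 13, had the same order of levels. It had 15.1 CPM (13.7 to 16.6), then 1.07 CPM (0.668 to 1.61), then 22.4 CPM (20.97 to 23.9), beside 53.4, 2.52 and 127 CPM of SOX21, a SOX factor of neural progenitors. FEZF1-AS1, nested with the forebrain zinc finger gene FEZF1 on chromosome 7, stood at 57.3, 7.56 and 46.6 CPM, and FEZF1 at 160, 29.4 and 424 CPM. From the library labelled day 0 to that labelled day 6, FEZF1 was higher by 2.65-fold (2.57 to 2.74) and FEZF1-AS1 lower by 1.23-fold (1.15 to 1.32), so the pair moved apart by 3.26-fold (3.03 to 3.51).

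The antisense genes of the orphan nuclear receptors NR2F1 and NR2F2 were highest in the library labelled day 0, as were the receptors. NR2F2-AS1 stood at 14.1, 0.194 and 0.897 CPM, with 4 UMIs in the library labelled day 2, and NR2F2 at 264, 1.36 and 8.70 CPM. NR2F1-AS1 stood at 15.4, 2.91 and 8.26 CPM and NR2F1 at 30.2, 0.776 and 2.76 CPM. From the library labelled day 0 to that labelled day 2, NR2F1 was thus lower by 38.9-fold (23.8 to 68.4) and NR2F1-AS1 by 5.29-fold (4.03 to 7.05), so the antisense gene spanned the smaller range.

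Of the remaining members of the list, OTX2-AS1, ZEB1-AS1 and ZFHX4-AS1 spanned a smaller range than their partners. OTX2-AS1, named after a homeobox gene of forebrain and midbrain, stood at 5.19, 6.74 and 7.58 CPM, while OTX2 stood at 86.1, 30.6 and 105 CPM. ZEB1-AS1, which overlaps the start of the zinc finger repressor gene ZEB1, stood at 9.67, 6.30 and 4.77 CPM, and ZEB1 at 74.4, 7.47 and 22.0 CPM. ZFHX4-AS1, named after a zinc finger homeobox gene, stood at 8.29, 3.73 and 1.16 CPM, and ZFHX4 at 179, 7.42 and 37.0 CPM. In the library labelled day 6 relative to that labelled day 2, ZFHX4-AS1 was 3.21-fold lower (2.21 to 4.70) and ZFHX4 4.99-fold higher (4.22 to 5.93). It was the single pair of 143 that lay past 2-fold on opposite sides in that comparison, and with an average of per-cell CPM the ratio of ZFHX4-AS1 was 0.569, no longer past 2-fold. FGF14-AS2, nested in the gene of the FGF family member FGF14, stood at 8.89, 5.58 and 6.45 CPM and lay between 0.5 and 2 times in all 3 comparisons, as did FGF14.

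**Figure D1:**
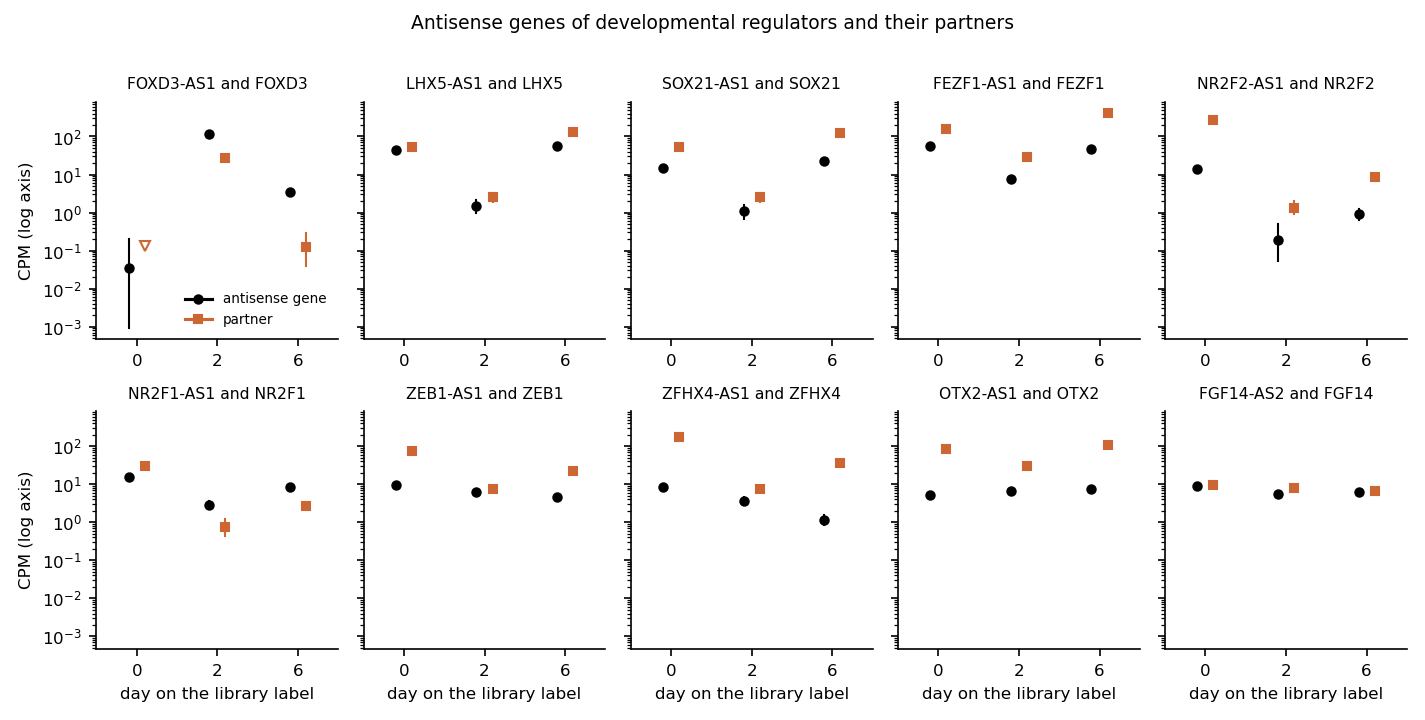
Levels of the 10 antisense genes with developmental partners (black circles) and of the partners (orange squares), in CPM on a log axis, against the day on the library label, with exact 95% Poisson intervals as bars. The open triangle marks the upper limit of FOXD3 at 0 UMIs. FOXD3-AS1 peaks in the library labelled day 2 at 117 CPM, where LHX5-AS1 and SOX21-AS1 stand at 1.45 and 1.07 CPM.

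The ephrin receptor pair EPHA1-AS1 and EPHA1 lay outside the list and had the order of FOXD3. EPHA1-AS1 stood at 0.529, 10.9 and 3.54 CPM and EPHA1 at 0.529, 42.7 and 13.4 CPM. Relative to the library labelled day 0, that labelled day 2 held 20.5-fold (12.2 to 37.3) more EPHA1-AS1 and 80.7-fold (48.7 to 145) more EPHA1. No exon of the pair overlaps in GENCODE release 29. A2ML1-AS1 stood at 10.3, 49.1 and 53.0 CPM, and C15orf59-AS1 at 2.29, 8.48 and 13.5 CPM. Their partners A2ML1, a protease inhibitor gene, and C15orf59 stayed under 5 CPM, at 0.282, 3.64 and 1.60 CPM and at 0.494, 2.86 and 1.58 CPM.

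For FOXD3-AS1 and LHX5-AS1 the share of cells with a UMI was also taken, after every cell was thinned to 1000 UMIs. Under the day 0 label 0 of 2290 thinned cells had a UMI of FOXD3-AS1, which allows a share of cells with a UMI of up to 0.131% (3 cells), while 13.1% (11.8 to 14.5) did under day 2 and 0.431% (0.255 to 0.680) under day 6. Without thinning the shares were 0.0437%, 44.6% and 3.16%. The shares of thinned cells with LHX5-AS1 were 3.76% (3.01 to 4.62), then 0.124% (0.0256 to 0.362), then 4.93% (4.29 to 5.63), and 31.3%, 0.909% and 27.6% without thinning, where the median cell held 8770, 3814 and 4429 UMIs. Free RNA in droplets can give a gene a UMI in cells that do not make it, and the low shares here were not tested for it.

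Another list, named for chromatin, DNA and RNA maintenance, held 11 antisense genes. Its partners also include the kinesin gene KIF9 and TAPT1, which are not genes of such maintenance. The counts are thus of the list as drawn up, with KIF9-AS1 among the members called, and not of maintenance genes alone. Of these 11 members 0 were up and 2 down in the library labelled day 2 relative to that labelled day 0. The library labelled day 6 had 3 up and 0 down relative to that labelled day 2, and 2 up and 1 down relative to that labelled day 0. The shares of all symbols are those given above for the developmental list, and no difference from them was tested. None of their measured partners, 9 different genes, was past 2-fold in any comparison. KIF9-AS1, whose end overlaps that of the kinesin gene KIF9, stood at 34.8, 11.1 and 24.9 CPM, and KIF9 at 9.28, 14.8 and 11.2 CPM. TMPO-AS1, which overlaps the start of the nuclear lamina gene TMPO, stood at 7.02, 11.9 and 18.9 CPM, 2.68-fold (2.29 to 3.15) apart between the libraries labelled day 0 and day 6, and TMPO at 134, 126 and 148 CPM. EIF3J-AS1, divergent from its partner EIF3J, lay between 0.5 and 2 times in all comparisons. ZRANB2, which codes for an RNA-binding splicing protein, has a pair of antisense genes: ZRANB2-AS2, divergent from it, stood at 6.32, 3.35 and 4.58 CPM, and ZRANB2-AS1, at its end, at 3.10, 4.85 and 5.62 CPM.

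Several other antisense genes differed widely while the partner lay between 0.5 and 2 times. RUSC1-AS1, which overlaps the start of the adaptor gene RUSC1 on chromosome 1, had 41.7 CPM (39.3 to 44.1), then 4.17 CPM (3.34 to 5.15), then 19.5 CPM (18.1 to 20.9), and RUSC1 stood at 46.4, 60.7 and 80.5 CPM. The library labelled day 2 thus held 9.99-fold (8.02 to 12.6) less RUSC1-AS1 than that labelled day 0. With an average of per-cell CPM its level there was 0.0607 times that in the library labelled day 0. DENND5B-AS1 stood at 1.73, 20.99 and 0.897 CPM, high in the library labelled day 2 alone, beside 67.5, 38.7 and 45.2 CPM of DENND5B, a gene of vesicle transport. For this pair, whose exons do not overlap in the annotation, the ratio of the ratios of the libraries labelled day 2 and day 0 was 21.1 (15.5 to 29.3), and 57.1 (26.3 to 146) with at most 10% mitochondrial UMIs per cell. GNG12-AS1 was the reverse, at 19.8, 1.503 and 3.66 CPM, while the G protein subunit gene GNG12 stood at 25.7, 22.5 and 18.3 CPM.

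JAKMIP2-AS1, whose end overlaps that of JAKMIP2, had 11.1 CPM (9.89 to 12.4), then 29.3 CPM (27.0 to 31.7), then 98.6 CPM (95.6 to 102), with no overlap of the intervals. JAKMIP2 stood at 57.2, 57.1 and 66.2 CPM. H1FX-AS1 stood at 1.69, 2.81 and 11.8 CPM, highest in the library labelled day 6, while H1FX, a linker histone gene, was lowest there, at 151, 114 and 87.9 CPM. The ratio of the ratios of the libraries labelled day 6 and day 0 was 12.0 (8.87 to 16.6) for this pair. EP300-AS1 stood at 3.74, 10.1 and 2.91 CPM beside 78.5, 70.3 and 79.7 CPM of the acetyltransferase gene EP300. LACTB2-AS1 stood at 7.69, 1.07 and 0.994 CPM, and ZNF436-AS1 at 6.74, 1.16 and 0.339 CPM. MCHR2-AS1 stood at 9.42, 11.2 and 4.12 CPM.

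Others hardly differed. NUTM2B-AS1 stood at 85.5, 82.0 and 80.0 CPM and NUTM2A-AS1 at 104, 85.5 and 106 CPM; these copies lie on chromosome 10 in duplicated sequence, so how reads were divided between them is uncertain. FGD5-AS1, on chromosome 3, stood at 46.5, 49.1 and 52.9 CPM, while FGD5, a gene of blood vessel endothelium, stood at 0.776, 8.24 and 3.30 CPM. TOPORS-AS1 stood at 19.5, 23.5 and 20.5 CPM. NCBP2-AS2, 1 of the 3 protein coding members, stood at 62.8, 79.3 and 68.9 CPM, and its divergent partner NCBP2, of the nuclear cap-binding complex, at 76.1, 86.7 and 78.1 CPM. Of all 178 antisense genes 39 had a highest level under 1.5 times the lowest, 81 at least 2 times and 19 at least 4 times. The same counts were not taken over all symbols, so whether antisense genes ranged more or less than others is not shown.

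The antisense genes with the highest level in any library were CCDC144NL-AS1, OIP5-AS1 and CCDC18-AS1. CCDC144NL-AS1 stood at 212, 96.9 and 115 CPM, and its partner CCDC144NL at 1.76, 1.07 and 1.09 CPM. OIP5-AS1, known as a decoy of microRNAs and of the RNA-binding protein HuR, stood at 125, 158 and 131 CPM, while OIP5, a centromere gene, stood at 14.9, 5.82 and 10.9 CPM. CCDC18-AS1 stood at 132, 43.3 and 57.0 CPM, and CCDC18 at 53.7, 29.5 and 32.8 CPM.

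Over all 178 members, more were lower than higher in the library labelled day 2. Relative to that labelled day 0, 45 members (25.3%) were down and 17 (9.55%) up, beside 10.6% and 11.7% of all symbols. Their median log2 ratio was -0.27, against 0.02 for all symbols. Among members under 50 CPM in every library the counts were 39 and 14 of 161, beside 10.9% and 13.7% of 8283 symbols in that range. Of the 142 measured partners 21 were down and 12 up.

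The library labelled day 6 had 23 members (12.9%) up and 10 (5.62%) down relative to that labelled day 2, beside 9.02% and 7.59% of all symbols. Among members under 50 CPM these counts were 20 and 9, beside 9.57% and 9.14% of symbols in that range. With at most 10% mitochondrial UMIs per cell, 42 members were up, beside 14.4% of all symbols. Relative to the library labelled day 0, that labelled day 6 had 17 (9.55%) up and 20 (11.2%) down, beside 12.2% and 7.03%; with an average of per-cell CPM, 16 were up and 31 down, beside 11.7% and 8.66% of all symbols. The members' summed level was 3203, 2637 and 2966 CPM. The highest of the 3 levels lay in the library labelled day 0 for 44.9% of members and the lowest in that labelled day 2 for 47.2%, against 31.7% and 36.5% of all symbols. The lowest level lay in the library labelled day 0 for 26.4% of members, against 40.2% of all symbols. The comparisons share libraries and are not independent of each other.

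**Figure D2:**
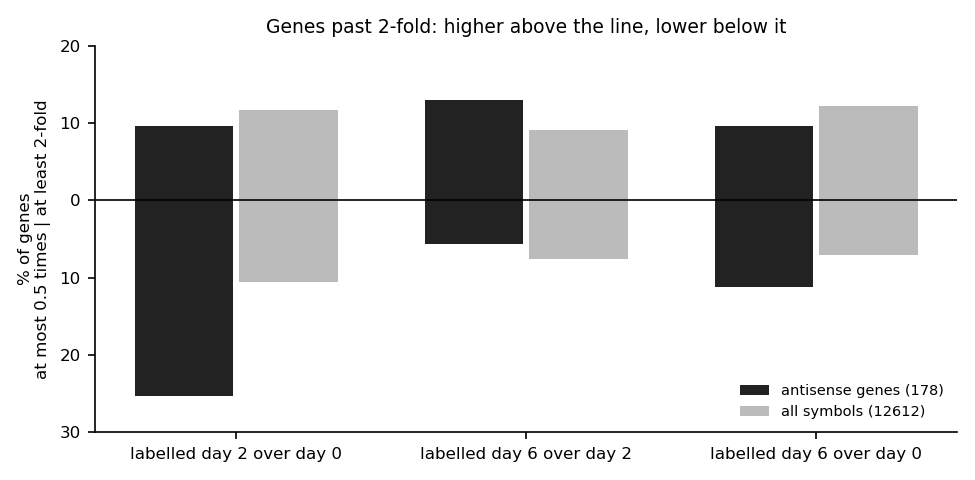
Percent of the 178 antisense genes (black) and of all 12612 symbols (grey) that were up (ratio of 2 or more, above the line) or down (0.5 or less, below it) in each comparison of labelled days. For day 2 over day 0 the bars below the line reach 25.3% and 10.6%.

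The mitochondrial share of the cells moved with these counts. The median share of MT- UMIs was 12.1%, 5.26% and 8.27%, and cells under 5% numbered 463 of 2290, 1185 of 2419 and 1648 of 4180. Within each library the members' summed level was lower in the cells under 5% than in the other kept cells, at 2281 against 3267 CPM, 2235 against 2771 CPM and 2442 against 3052 CPM. Of members with at least 5 CPM on either side, 53 of 151, 38 of 137 and 36 of 149 were at most 0.5 times in the cells under 5%, beside 13.9%, 16.8% and 10.9% of all symbols. At least 2-fold higher there were 0, 0 and 1 members, beside 1.83%, 0.91% and 0.465%. Members had been chosen by at least 5 CPM over all kept cells, most of whose UMIs came from cells at 5% or more. All symbols here needed 5 CPM on either side of the split only. The rule could thus leave out antisense genes high in the cells under 5% alone, and its part in these sums and counts was not tested. The cells under 5% were also shallower, with medians of 2768, 3170 and 2479.5 UMIs against 11763, 5904 and 8794.5, and held less of the nuclear RNA MALAT1, at 1754 against 4280 CPM, 406 against 930 CPM and 562 against 651 CPM. The part of mitochondrial share and depth in the differences between libraries was not tested. Over cells with at least 5% mitochondrial UMIs alone, 36 members were down and 16 up in the library labelled day 2 relative to that labelled day 0, beside 9% and 11.8% of all symbols.

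Some members followed this split far more than others. ADAMTS9-AS2, chosen after its values were seen, stood at 9.29 CPM in the cells under 5% and 75.4 CPM in the others of the library labelled day 0, at 8.74 and 78.5 CPM in that labelled day 2 and at 10.01 and 57.0 CPM in that labelled day 6. Over all kept cells it stood at 71.1, 61.1 and 50.4 CPM, and its partner ADAMTS9, a secreted protease gene, at 31.2, 3.73 and 10.3 CPM. ADAMTSL4-AS1, chosen in the same way, stood at 4.92 and 18.3 CPM, 2.52 and 33.9 CPM, and 5.01 and 29.97 CPM. RUSC1-AS1 and CCDC18-AS1 were lower in the cells under 5% in all 3 libraries too. OIP5-AS1 was not, at 132 and 124 CPM, 164 and 157 CPM, and 155 and 127 CPM, nor was FGD5-AS1, at 62.3 and 45.4 CPM, 62.7 and 44.6 CPM, and 67.1 and 50.5 CPM.

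**Figure D3:**
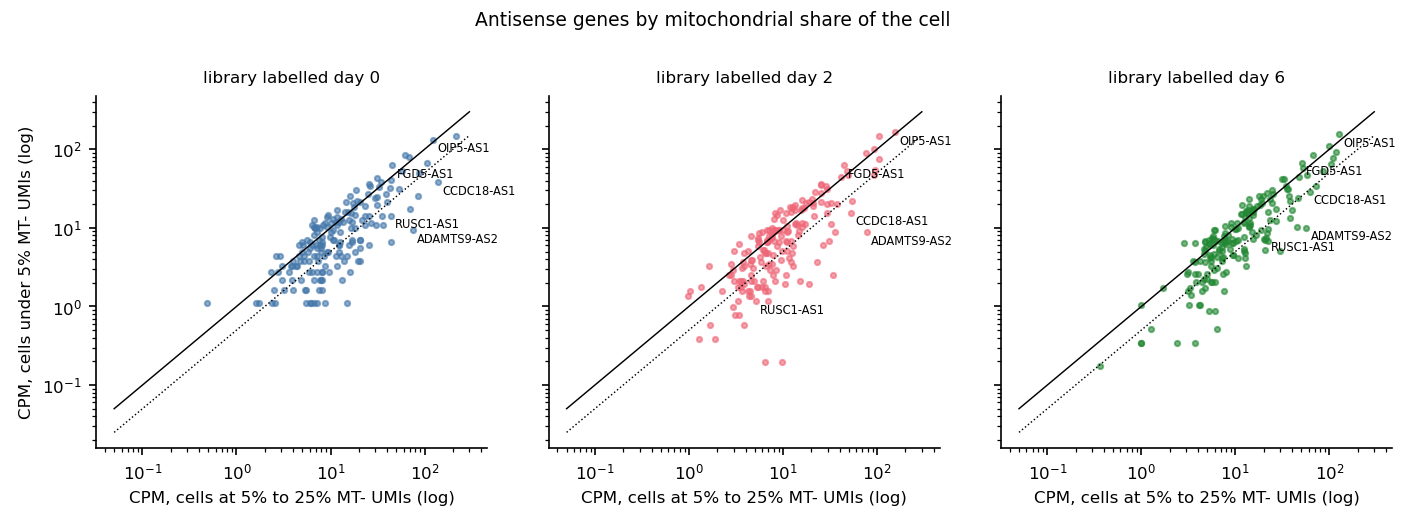
CPM of each antisense gene in kept cells under 5% mitochondrial UMIs against that in the other kept cells of the same library, both on log axes, with the line of equal levels (solid) and of 0.5 times (dotted). Genes with 0 UMIs on a side are not drawn. ADAMTS9-AS2 and CCDC18-AS1 lie below the dotted line in all 3 libraries, and OIP5-AS1 and FGD5-AS1 above the solid line.

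Member and partner were set side by side in the 143 pairs whose partner also reached 5 CPM; another 34 partners did not, and CD27, the partner of CD27-AS1, was not analysed here. In the library labelled day 2 relative to that labelled day 0, 51 members and 33 partners were past 2-fold, either up or down. In 6 pairs both were up, in 12 both were down, in 33 only the member was past 2-fold and in 15 only the partner. No pair lay on opposite sides. Both on the same side were thus 35.3% of the members past 2-fold and 54.5% of the partners. Across the 143 pairs, which share both libraries and are not replicates, the log2 ratios of member and partner had a Pearson correlation of 0.67 and a Spearman correlation of 0.31.

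The same counts for the library labelled day 6 relative to that labelled day 2 were 6 both up, 3 both down, 13 with the member alone, 15 with the partner alone and 1 on opposite sides. With at most 10% mitochondrial UMIs per cell the member was alone past 2-fold in 30 pairs. Relative to that labelled day 0 they were 4, 4, 23, 18 and 0. The correlations were 0.59 and 0.17 for the former and 0.43 and 0.40 for the latter. The interval of the ratio of the ratios left out 1 in 105, 103 and 107 of the pairs, so most pairs did not keep a constant ratio beyond counting error. Neither these counts nor those of pairs on the same side were taken for pairs of other genes, so they show no trait particular to antisense pairs.

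Pairs at each other's ends and pairs at each other's starts differed in these counts. Of the 28 measured pairs with overlapping ends, 10 members were past 2-fold in the library labelled day 2 relative to that labelled day 0, and in 0 of these was the partner on the same side. In the other 2 comparisons this was 0 of 4 and 0 of 6. Among 69 pairs with overlapping starts it was 10 of 28, 6 of 15 and 5 of 20 members past 2-fold, and among 32 divergent pairs 4 of 9, 2 of 3 and 1 of 2. In the 12 nested pairs it was 3 of 3, 1 of 1 and 2 of 2. OIP5-AS1, KIF9-AS1, JAKMIP2-AS1, EP300-AS1, LACTB2-AS1 and FGD5-AS1 are pairs at the ends. By exons, the share on the same side was 7 of 31 members past 2-fold in 86 pairs with overlapping exons and 10 of 19 in 55 pairs without, in the library labelled day 2 relative to that labelled day 0. It was 5 of 12 and 4 of 11 for the library labelled day 6 relative to that labelled day 2, and 2 of 21 and 6 of 9 relative to that labelled day 0. The counts are small and were not tested.

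**Figure D4:**
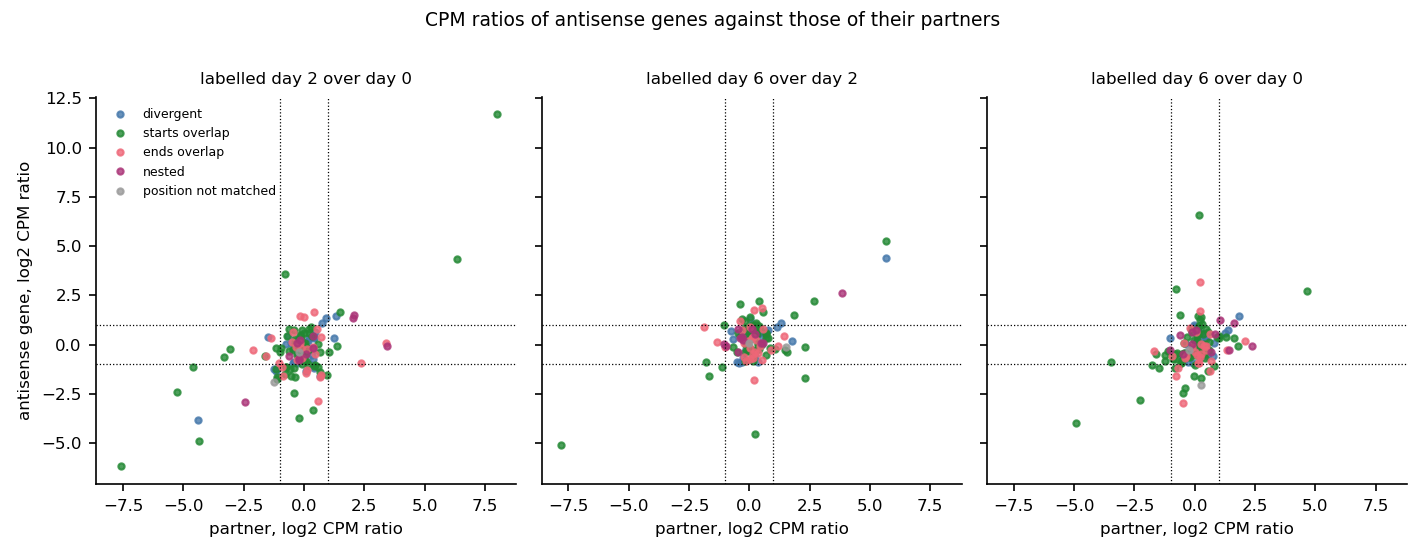
Log2 CPM ratio of each antisense gene against that of its partner in the 143 measured pairs, coloured by position, for the 3 comparisons of labelled days. Dotted lines mark 2-fold, and FOXD3 is drawn with 3 UMIs in place of 0. Pairs past 2-fold on both axes are green, blue, purple or grey, and none has overlapping ends.

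Whether UMIs of member and partner went together in single cells could be seen for few pairs at this depth. In cells thinned to 1000 UMIs, 71, 58 and 103 pairs had at least 20 cells with the member. In 61, 47 and 80 of them fewer than 5 cells would hold both if the genes were independent. The partner was seen in a larger share of cells with the member than of cells without in 29, 25 and 44 of them. The 95% intervals of both shares lay apart in 4 cases, named here for that reason. How many of so many pairs would lie apart by counting error alone was not worked out, and no cause was tested. CCDC18 was seen in 11 of 159 cells with CCDC18-AS1 (6.92%) and 2.36% of cells without in the library labelled day 6. In the library labelled day 0, TTC28 was seen in 27.9% of 61 cells with TTC28-AS1 and 15.1% of cells without. ZNF561 was seen there in only 4 of 26 cells with ZNF561-AS1 (15.4%) and in 1.81% of cells without. ADGRL3 was the reverse, in 12.8% of 78 cells with ADGRL3-AS1 and 24.5% of cells without in the library labelled day 6.

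For a few pairs the antisense gene had counts where its partner had nearly none. PCBP1, a widely used RNA-binding protein gene of a single exon that lies inside PCBP1-AS1 on chromosome 2, stood at 0.141, 0.436 and 0.121 CPM, and PCBP1-AS1 at 16.5, 12.8 and 25.5 CPM. MMP24, a membrane metalloprotease gene, had 0.0353, 0.0485 and 0 CPM beside 17.7, 28.2 and 32.6 CPM of MMP24-AS1. CBR3, a carbonyl reductase gene, had 0 UMIs in all libraries beside 11.7, 13.5 and 12.7 CPM of CBR3-AS1. Of these genes MMP24-AS1 and CBR3-AS1 were chosen after their values were seen. The last 500 exonic bases of a transcript, near which tags of this kind of method lie, were overlapped by exons of the opposite strand over their full length for PCBP1 and MMP24 and over 62.2% for CBR3.

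This was followed up over all coding genes, as a description added after the values were seen. Among 13327 coding symbols with no such overlap 61.7% reached 5 CPM in at least 1 library, and among 4173 with an overlap under 50% it was 70.4%. Among 175 with 50% to under 100% it was 32.0% and among 43 with full overlap 30.2%, with median highest levels of 1.89 and 0.582 CPM against 12.6 CPM without overlap. Reads from such an end cannot be told apart from those of the other strand where the counting does not use strand. How the authors' counting treated them is not given in the sources used here, so the levels of these pairs are uncertain.

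**Figure D5:**
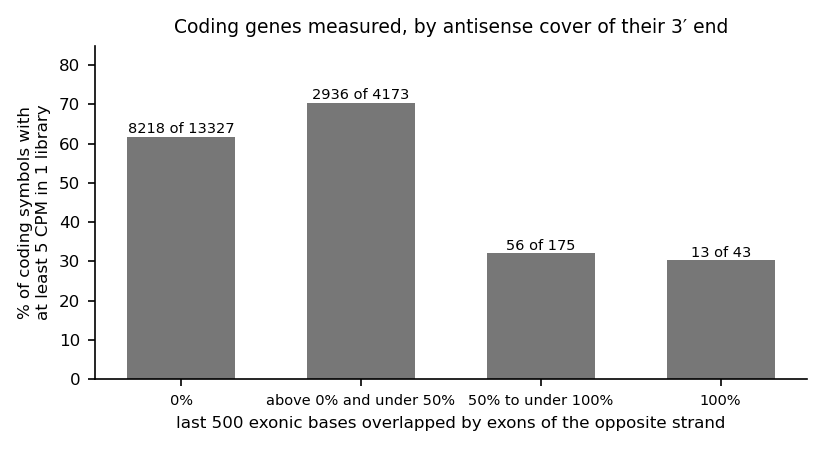
Percent of coding symbols that reached 5 CPM in any library, by how much of the last 500 exonic bases is overlapped by exons of the opposite strand in GENCODE release 29. The numbers above the bars are symbols past 5 CPM of all symbols in the class, and the shares are 61.7%, 70.4%, 32.0% and 30.2% from no overlap to full overlap.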

How the data were processed

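Whole-number counts by gene symbol and barcode were deposited for 3 libraries, and were read as UMI counts since inDrop tags molecules. The submitters' processing notes name STAR and hg38. Which annotation, barcode filter, UMI collapse and strand were used is not given in the sources used here. Kept cells had at least 1000 UMIs, 500 genes and at most 25% MT- UMIs, doublets were not called, and UMIs were summed per library and scaled to CPM. At these totals 3 UMIs are worth 0.106, 0.145 and 0.0727 CPM for the libraries labelled day 0, day 2 and day 6.

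Levels have exact Poisson intervals, ratios exact conditional binomial intervals, ratios of ratios exact conditional intervals of the 2 by 2 table, and shares of cells Clopper-Pearson intervals, all at 95% and made with scipy 1.17.1. Against 0 UMIs a ratio is given with 3 UMIs in their place, which is a convention and not a limit of its 95% interval. The calculations were tested on simulated data. Clusters came from scanpy 1.11.5 with igraph 0.11.9 (2000 variable genes, 30 components, 15 neighbours, resolution 0.5). Other scalings included TMM factors of edgeR 4.0.16.

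The members, lists and alternatives were chosen with earlier results of these data known. Named members are, per comparison, 5 at each end of the ratios, ordered by the interval's bound closest to 1, the 5 with the highest CPM in any library, the 5 with the smallest range among those with at least 20 CPM, pairs on opposite sides, and fixed developmental names and lists. Genes named outside this rule, the overlap of 3′ ends and the alternative without shared barcodes were chosen after seeing the data. Positions were meant to come from the RefSeq table; it lacks strands, so GENCODE release 29 was used, by name for 156 members and by a RefSeq synonym for 20, while NOVA1-AS1 and SPTY2D1-AS1 were not matched. Members stayed the same 178 under all alternatives other than those of the minimum level.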

Additional observations from a re-analysis of the deposited data

Results flagged for a closer look

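The barcodes left out by the cell filter also held UMIs of the 178 antisense genes, which no comparison of the report used. Their summed level was 2379 CPM (2334 to 2425) in 9001 such barcodes of the library labelled day 0, 2232 CPM (2204 to 2259) in 9904 of that labelled day 2 and 2403 CPM (2373 to 2433) in 11893 of that labelled day 6, against 3203, 2637 and 2966 CPM in the kept cells. It was thus lower than in the kept cells in each library. The members had been chosen by their level in the kept cells, which favours a higher sum there, so the lower sum is no result about them. DLGAP4-AS1, KMT2E-AS1 and PVRL3-AS1 reached 5 CPM in the left-out barcodes of the library labelled day 2 and in no library's kept cells.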

How the results depend on the processing

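No ratio of the 50 named members that was past 2-fold changed sides of 1 under 12 alternatives. Ratios between 0.5 and 2 were not checked for such a change. Of 1767 values under the alternatives, 1614 stayed inside the interval and 153 moved beyond it. Most of these moved with an average of per-cell CPM (61) or with at most 10% mitochondrial UMIs (60). Of 181 counts, 145 stayed within 1.5 times. With no minimum beyond 1 UMI, members up (ratio of 2 or more) and down (0.5 or less) numbered 195 and 159 for labelled day 2 over day 0, 92 and 237 for labelled day 6 over day 2, and 152 and 173 for labelled day 6 over day 0; pairs on the same side numbered 88, 68 and 59, on opposite sides 32, 18 and 33, and with the member alone past 2-fold 218, 228 and 217. With a minimum of 10 CPM, 8 members were up and 12 down for day 6 over day 0, with 4 pairs on the same side and 12 with the member alone; for day 6 over day 2 the member was alone in 8 pairs and 0 lay on opposite sides. With at most 10% mitochondrial UMIs, 42 members were up and the member was alone in 30 pairs for day 6 over day 2, and pairs on opposite sides numbered 2 in the comparison of days 2 and 0 and 1 in that of days 6 and 0. With an average of per-cell CPM, 31 members were down for day 6 over day 0, the member was alone in 20 pairs and 0 lay on opposite sides for day 6 over day 2, and 2 lay on opposite sides for day 2 over day 0. Pairs on opposite sides numbered 1 for day 2 over day 0 with TMM factors, with median-of-ratios factors and without cells above the 95th percentile of UMIs, and 2 for day 6 over day 2 with TMM or median-of-ratios factors, with totals that leave out MT- and ribosomal protein genes, and without cells in clusters held mostly by another library. Without thinning, FOXD3-AS1 was seen in 44.6% and 3.16% of cells of the libraries labelled day 2 and day 6, and LHX5-AS1 in 31.3%, 0.909% and 27.6% of all 3. The cause of these shifts was not tested, apart from the number of genes and pairs, which the minimum level sets. Calls near 2-fold were lost for VLDLR-AS1, whose ratio for day 2 over day 0 went from 3.11 to 1.79 at 10% mitochondrial UMIs, and for GNG12-AS1, from 2.43 to 1.04 for day 6 over day 2 with an average of per-cell CPM; both are named for that reason. At 10% mitochondrial UMIs the ratio for day 2 over day 0 went from 12.1 to 23.1 for DENND5B-AS1, from 0.0759 to 0.0336 for GNG12-AS1, from 0.0137 to 0.0340 for NR2F2-AS1 and from 0.139 to 0.0705 for LACTB2-AS1. No paired analysis was possible because each labelled day has 1 library and its replicate number is only a name. Counts near 3 UMIs, as for NR2F2-AS1 and FOXD3-AS1, limit the smallest levels.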
